A study of Mus musculus with 18 samples.

Results

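The insulin-like growth factor (IGF) genes described here are 8 genes read by name from every deposited table: the ligands Igf1 and Igf2, the receptor Igf1r, and the binding proteins Igfbp2, Igfbp3, Igfbp4, Igfbp5 and Igfbp7. All 8 had a row in each of the 3 bulk count tables, among 35842 named rows in the Ras tumour table, 35842 in the cell line table and 18267 in the CD11b table, and in the 10x table. The Drop-seq table gave 7 of them, and Igf2 was not analysed here in that library. They were followed through mouse gliomas of different genetic drivers, through myeloid cells taken from them and through lines grown from them.

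IGF1 and IGF2 are secreted peptides that bind the receptor tyrosine kinase IGF1R, which signals through IRS adaptors to PI3K, AKT and mTOR and favours growth and survival. Most secreted IGF is held by binding proteins, which lengthen its life, restrain it or release it when they are cleaved, and which also act without IGF in some settings. In the brain, neurons, glia, vessel cells and macrophages can each make parts of the system, and macrophage IGF1 has been studied as a growth signal to glioma cells during inhibition of the CSF1 receptor (CSF1R). PLX3397 is an oral inhibitor of CSF1R that also acts on the kinases KIT and FLT3. CSF1R is the receptor on which most microglia and macrophages depend.

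The Ras tumours were driven by HRasV12 with a dominant negative p53 in mice of strain Boy/J. They came from mice given vehicle (n = 4; the treatment label of these libraries reads untreated and their titles read vehicle) or PLX3397 (n = 4) by daily oral gavage at 100 mg/kg, from day 7 after implantation until the mice were moribund. From tumours driven by PDGFB, cells positive for CD11b were enriched on magnetic beads after 3 days of dosing from day 14, with PLX3397 in 2 libraries and vehicle in 1. The lines came from Ras tumours (n = 2) and PDGF tumours (n = 3). Both kinds were grown with EGF and FGF at 20 ng/mL, the PDGF lines also with PDGFAA and PDGFBB at the same concentration and B27 and N2, and the Ras lines with an insulin-containing supplement. A further untreated Ras tumour library was made by 10x and another by Drop-seq. Each line is a population selected by culture.

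Each Ras tumour library held between 31.2 and 35.8 M counts (M is 1e6), each line library between 31.9 and 35.8 M and each CD11b library between 26.8 and 30.9 M. The 10x library held 59.3 M unique molecular identifiers (UMIs, one per captured transcript) over 4384 barcodes, of which 3320 were kept, with a median of 8351 UMIs. The Drop-seq library held 9.67 M UMIs over 5000 barcodes, of which 4901 were kept, with a median of 1396. The 2 libraries shared 0 barcodes over their first 12 bases. The doublet caller Scrublet marked 0 cells in either library, and doublets were not removed. The CD11b-positive libraries carried macrophage genes, with summed counts per M (CPM) of 8 shared macrophage markers of 10210 to 13690, against 4.453 to 9.357 in the Ras lines. They also carried astrocyte, vessel and fibroblast markers, given beside the results they touch.

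The genome positions below are those of GENCODE for GRCm38. Igf1 lies on the plus strand at chr10:87858265-87937042, Igf1r on the plus strand at chr7:67952827-68233668, and Igf2 on the minus strand at chr7:142650766-142666816. Igfbp2 (chr1:72824503-72852474, plus strand) and Igfbp5 (chr1:72857932-72874884, minus strand) are neighbours that end towards each other. Igfbp3 lies at chr11:7206086-7213923 on the minus strand, Igfbp4 at chr11:99041244-99054392 on the plus strand and Igfbp7 at chr5:77349240-77408041 on the minus strand. Igf1 and Igf2 each overlap an antisense gene (Igf1os and Igf2os), Igf2 also holds Mir483 on its own strand, and Igfbp7 overlaps Polr2b on the opposite strand. Whether the counting used strand is not given in the sources used here, so reads of such overlapping genes cannot be told apart.

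The promoters of 3 members are shown because each of these genes had its largest share of UMIs in different cells of the 10x Ras tumour. These were macrophages for Igf1 and a cluster led by Lcn2 for Igfbp2, called tumour-type here though the naming rule gave it no class. For Igfbp7 it was a cluster of endothelial, mural and fibroblast genes, called vascular here. The sequences are from RefSeq (GRCm38.p6), 5′ to 3′ on the strand of the gene. Capitals mark TGANTCA, a loose form of the AP-1 motif with any base in the centre, in Igf1 (chr10:87861064-87861090, plus strand, 47 to 21 bases before the start). The AP-1 consensus has C or G in the centre, where the Igf1 match has A. In Igfbp2 (chr1:72824330-72824479, plus strand) and Igfbp7 (chr5:77408046-77408195, minus strand), capitals mark GGGCGG, the SP1 motif, on either strand. Both of these stretches run from 150 bases to 1 base before the start.
Igf1: agctggaactTGAATCActattctgga
Igfbp2: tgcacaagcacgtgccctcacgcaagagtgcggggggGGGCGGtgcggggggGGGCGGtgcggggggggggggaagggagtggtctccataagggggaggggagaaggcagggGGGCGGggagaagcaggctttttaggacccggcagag
Igfbp7: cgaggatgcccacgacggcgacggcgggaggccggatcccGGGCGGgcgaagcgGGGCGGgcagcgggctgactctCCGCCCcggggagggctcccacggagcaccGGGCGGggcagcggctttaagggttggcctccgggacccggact
The Igfbp2 stretch holds GGGCGG 3 times and the Igfbp7 stretch 4 times. Over the 32851 RefSeq promoter windows of 300 bases, 35.7% hold GGGCGG and 7.81% hold TGANTCA, on either strand. The full windows of Igfbp2 and Igfbp7 are GC-rich, at 67% and 73.3% GC with 18 and 33 CpG dinucleotides, against medians of 52.7% and 7 over all windows, while that of Igf1 is near the median at 52.3% GC with 6 CpG. The Igf1 stretch falls inside an exon of other Igf1 transcripts in GENCODE. A motif match is a description of the letters and not a site of binding.

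In the vehicle Ras tumours, the mean RNA level of each binding protein exceeded that of the ligands. Per kb of annotated exon, Igfbp3, the main carrier of circulating IGF, had the highest level, 460 ± 61.9 CPM per kb (SD, n = 4). Igfbp7, a vessel-associated secreted protein that binds IGF weakly, followed at 113 ± 12.6 CPM per kb. Igfbp4, Igfbp5 and Igfbp2 came next, at 44.0 ± 9.16, 41.1 ± 14.3 and 39.4 ± 25.6 CPM per kb, and these neighbours lay within each other's spread. Igf1r had 9.86 ± 1.28 CPM per kb, above both ligands. The ligands were lowest, Igf2 at 4.5 ± 3.45 and Igf1 at 1.28 ± 0.796 CPM per kb, which differed by less than the spread of Igf2. Over single libraries Igfbp2 ranged from 1.46 to 55.5 CPM per kb, so its lowest library lay within the range of Igf2, 1.42 to 8.23. In the lone CD11b vehicle library the order of the first members was Igfbp3 at 41.3 CPM per kb, Igfbp7 at 27.8, Igfbp4 at 16.7 and Igf1 at 8.89.

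**Figure D1:**
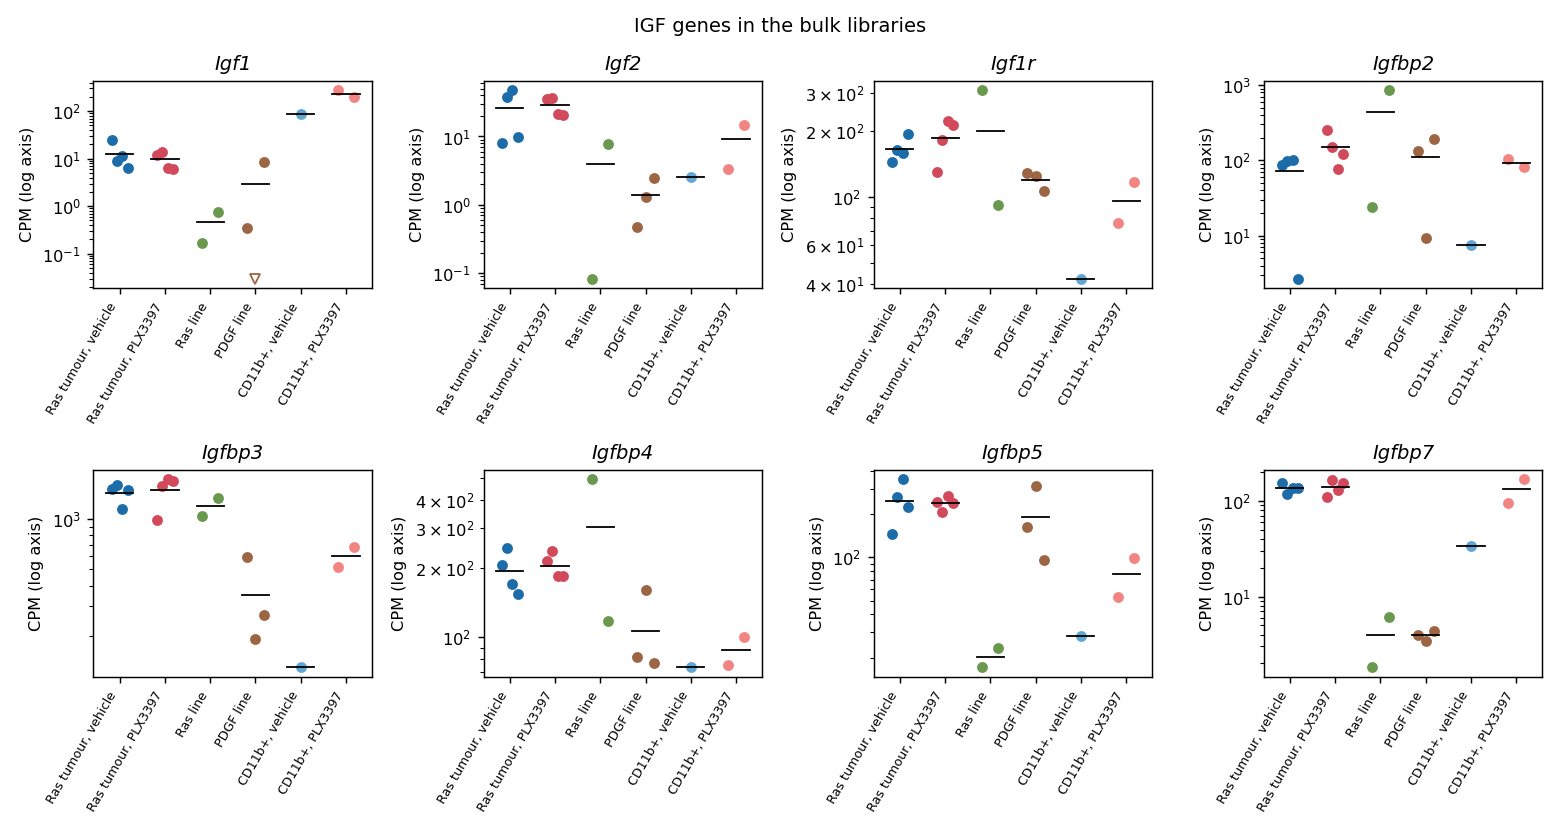
Each panel plots 1 IGF gene, with the bulk groups on the x axis and CPM on a log scale on the y axis; each point is 1 library. The 4 vehicle and 4 PLX3397 Ras tumours overlap for every gene, the CD11b-positive PLX3397 libraries lie above the lone vehicle library, and Igfbp7 and Igf1 are low in the Ras lines.

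The cell types behind the tumour values were read from the 2 single-cell libraries. Cells were clustered without the 8 members, so that the clusters did not rest on them. With 1 library for each method there is no test between cell types, intervals are exact 95% Poisson or binomial intervals that cover counting error only, and a UMI in a cell may come from free RNA. Igf1 was a macrophage transcript in this tumour. Of 603 Igf1 UMIs in the 10x cells, 510 (84.6%) lay in the 535 macrophage-like cells, which held 12.4% of all UMIs. Their summed level was 75.47 CPM (69.1 to 82.3).

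Among these, the cluster led by Rgs1, Arg1 and Thbs1, monocyte-derived macrophage-like by its markers (262 cells, median 15387 UMIs), held 449 UMIs at 84.03 CPM (76.4 to 92.2), and 34.0% of its cells had one. The macrophage-like cluster led by Fcrls, Aif1 and the complement gene C1qb (273 cells, median 2587 UMIs) held 61 UMIs at 43.13 CPM (33.0 to 55.4), in 12.5% of cells. After every cell was thinned to 2000 UMIs, with shallower cells left out (257 and 174 cells remained), the shares were 8.56% and 5.75%. The intervals of the levels did not overlap, while the thinned shares lay closer.

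Outside macrophages Igf1 was scarce. Clusters called tumour-type here had 0.6142 CPM (Clca3a1 and Matn4), 3.586 CPM (Lcn2 and Crispld2), 3.697 CPM (Rorb and Ntng1) and 4.164 CPM (Crabp2 and Dlk1), and the dividing cells led by Mki67 had 0.2255 CPM. The naming rule gave none of these clusters a class, and whether they are tumour cells was not tested. No Igf1 UMI was found in 166 erythroid cells, 82 neutrophil-like cells or the 55 cells of the vascular cluster, where a floor of 3 UMIs allows levels up to 5.44, 11.9 and 1.82 CPM. A cluster of 38 shallow cells led by Alb and Ttr had 3 Igf1 UMIs, 101.8 CPM (21.0 to 297.0). The Drop-seq tumour had the same order: its 179 macrophage-like cells held 54 of 79 Igf1 UMIs (68.4%) and 2.41% of all UMIs, a level of 234.8 CPM (176.0 to 306.0). There the next highest cluster, led by Areg and Hbegf, had 13 UMIs at 11.21 CPM.

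**Figure D2:**
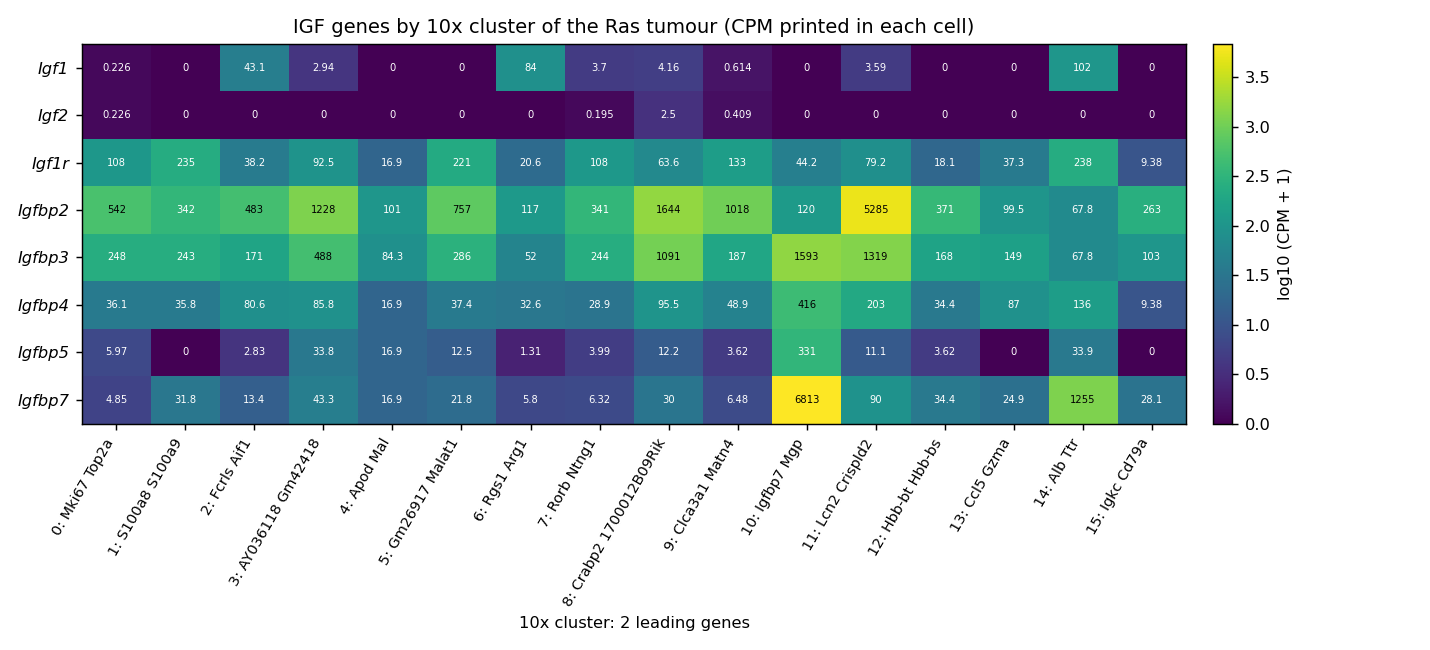
The heat map shows the 8 IGF genes (rows) in the 16 clusters of the 10x Ras tumour (columns, named by 2 leading genes); the CPM of summed UMIs is printed in each cell and colour is log10 of CPM + 1. Igf1 is highest among the large clusters in the Rgs1 and Arg1 macrophages at 84.03 CPM, Igfbp2 in the Lcn2 cluster at 5285 CPM and Igfbp7 in the vascular cluster at 6813 CPM.

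Igf1 was unevenly spread within the macrophages. A UMI of it was found in 123 of the 535 10x macrophage-like cells, 27 had 5 or more, and the highest cell had 46. The 10 highest cells held 44.1% of the macrophage Igf1 UMIs, and in Drop-seq 53.7%. The macrophage-like cells were therefore clustered again, a step chosen after the data had been seen and first looked at with resolution 0.3, and 0.5 was kept because it is that of the first clustering.

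A sub-cluster of 153 cells led by Rsad2, Ifit2, Gpnmb and Ccl7 held 440 Igf1 UMIs, 86.3% of the macrophage total, at 129 CPM (117 to 141), in 54.2% of its cells. Rsad2 and Ifit2 are interferon-stimulated genes, Gpnmb is a glycoprotein of phagocytes, and Mertk, an efferocytosis receptor, was at 115 CPM there. A sub-cluster of 92 cells with the monocyte genes Ccl24, Chil3, Ccr2 and Plac8 (Chil3 at 2010 CPM, against 4.98 CPM in the first) held 1 Igf1 UMI, 0.974 CPM (0.0247 to 5.43). A sub-cluster of 23 cells with the dendritic genes Ccl22, Ccl17 and Ccr7 held 0, which a floor of 3 UMIs limits to 11 CPM.

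Median depth was 21964 UMIs in the Gpnmb cells, 10912 in the Chil3 cells and 12301 in the Ccr7 cells, and after thinning 11.2%, 0.0% and 0.0% of their cells had an Igf1 UMI. The remaining macrophage-like cells fell into 201 shallow cells led by Hbb-bs, Igfbp3 and Sparc (53.2 CPM), 33 cells with tumour-type genes (29.8 CPM) and 33 dividing cells (19.2 CPM). Hbb-bs and Igfbp3 are genes of erythroid and of vessel or tumour cells, and the part of free RNA or doublets in these sub-clusters was not tested. At resolution 0.8 the highest sub-cluster was a smaller one of 36 cells at 167 CPM, and a sub-cluster with the microglia genes Cst7, Siglech and Tmem119 (46 cells) had 2 Igf1 UMIs, 16.1 CPM. In Drop-seq, a sub-cluster led by Siglech and Tmem119 (38 cells) had 4 UMIs, 92.3 CPM (25.1 to 236.0), in 10.5% of cells. The largest sub-cluster of 114 cells had 46 UMIs, 334 CPM (245.0 to 446.0), in 21.9% of cells. These intervals nearly touch and cover counting error only, so no difference is read from them.

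**Figure D3:**
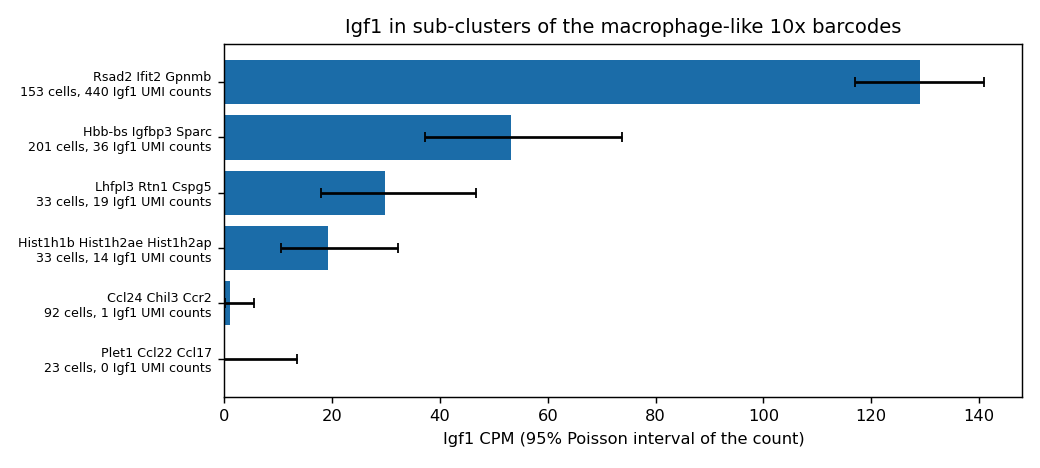
Igf1 CPM with exact 95% Poisson intervals (x axis) in the macrophage sub-clusters of the 10x tumour (y axis, named by leading genes). The 153 Gpnmb cells of the 10x tumour lie at 129 CPM and the 92 Chil3 cells at 0.974 CPM.

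Igf2, the fetal growth ligand, had 19 UMIs in 15 cells of the 10x library. Of these, the cluster led by Crabp2 and Dlk1 held 9, at 2.498 CPM, and 6 lay in the cluster led by Clca3a1 and Matn4. The receptor Igf1r was lower in the macrophage-like cells than over all cells, in both libraries. Its level was 95.96 CPM over all 10x cells, 63.6 to 133.1 CPM in the large tumour-type clusters, 234.8 CPM in neutrophil-like cells, and 24.27 CPM in the macrophage-like cells. Igf1r was low as well in some classes with no Igf1 UMI. It was 18.12 CPM in erythroid cells (10 UMIs), 16.85 CPM in oligodendrocytes and 9.381 CPM in B cells (1 UMI each). In Drop-seq it was 143.6 CPM over all cells and 26.08 CPM (9.57 to 56.8, from 6 UMIs) in the macrophage-like cells.

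Igfbp2, which binds IGF2 and IGF1 and is widely made by glia and glioma cells, peaked in 1 cluster called tumour-type here. The naming rule gave that cluster no class: it had 4 tumour cell markers and 3 astrocyte markers, none among its leading genes. The 314 cells led by Lcn2, Crispld2 and Scg2 had 5285 CPM (5230.0 to 5340.0), 49.6% of all Igfbp2 UMIs, in 95.9% of cells. The next levels were 1644 CPM in the Crabp2 cluster and 1018 CPM in the Clca3a1 cluster. Erythroid cells, which should not make it, had 371.4 CPM and a UMI in 65.7% of cells (median 2326 UMIs), a measure of free RNA. The macrophage-like cells together (median 7285 UMIs) had 193.4 CPM, below the erythroid cells, but 2.44 UMIs a cell, above the 1.23 of the erythroid cells. The macrophage-like cluster led by Fcrls was at 482.9 CPM and the one led by Rgs1 at 116.8 CPM, so these values do not settle whether macrophages held Igfbp2 RNA of their own. Drop-seq had no cluster led by Lcn2, and Igfbp2 was highest in the Areg and Hbegf cluster, at 751.8 CPM against 531.1 CPM over all cells and 108.7 CPM in the macrophages.

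Igfbp3 had several sources: 1593 CPM in the vascular cluster, 1319 CPM in the Lcn2 cluster and 1091 CPM in the Crabp2 cluster, against 168.5 CPM in erythroid cells and 76.95 CPM in the macrophage-like cells. In Drop-seq the Areg cluster had 1731 CPM, vascular cells 1133 CPM and macrophage-like cells 117.4 CPM. Igfbp4, which restrains IGF until the protease PAPP-A cleaves it, was highest in vascular cells, at 416.4 CPM in 10x and 309.5 CPM in Drop-seq.

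Igfbp7 lay mostly in the cluster called vascular in each tumour, which held endothelial, mural and fibroblast genes. The 55 vascular cells of the 10x tumour held 11241 of its 12290 UMIs (91.5%) at 6813 CPM, with a UMI in 54 of them. In Drop-seq, 80 vascular cells held 1003 of 1149 (87.3%) at 6209 CPM, with a UMI in 79. These clusters mixed endothelial, mural and fibroblast genes and were split again, after the data had been seen. The non-endothelial part had more fibroblast and meningeal than mural marker RNA, 8003 against 6797 CPM in 10x and 7738 against 6451 CPM in Drop-seq. The 30 endothelial cells of the 10x tumour (Ctla2a, Cldn5, Pecam1) and the 25 mesenchymal cells (Apod, Acta2, Postn) had similar Igfbp7, 6660 and 7060 CPM. Fcer1g and Plac8, genes of the myeloid lists used here, were also among the leading genes of the mesenchymal cells. The part of doublets or free RNA there was not tested. Igfbp3 differed between the endothelial cells, at 2430 CPM (2330 to 2530), and the mesenchymal cells, at 275 CPM (236 to 318). A single cell held 618 of the 2452 endothelial UMIs and another 127 of the 176 mesenchymal ones, a spread between cells that these intervals leave out. Drop-seq had the same order for Igfbp3, 3200 CPM (2730 to 3740) in 15 endothelial cells and 214 CPM in 65 mesenchymal cells.

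Igfbp5, a matrix-bound binding protein, cannot be placed from these cells. Of its 870 UMIs in the 10x library, 408 (46.9%) lay in 1 barcode of the vascular cluster. Without that barcode the vascular share fell from 62.8% to 29.9% of Igfbp5 UMIs and the vascular level from 330.9 to 84.7 CPM. Drop-seq held only 25 UMIs of it.

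Treatment of the Ras tumours with PLX3397 changed no IGF gene past the threshold. Called here means a Benjamini-Hochberg adjusted p under 0.05 in the quasi-likelihood test of edgeR over all genes tested. None of 18366 genes (0%) was called in this comparison, 648 (3.53%) had an unadjusted p under 0.05, and DESeq2 called 178. All 8 members had an adjusted p of 1 and groups that overlapped, where 2.3% of all genes had groups that did not. In bulk tissue, fewer cells of a type and less RNA per cell cannot be told apart.

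Igf1 was 24.12, 8.981, 11.4 and 6.35 CPM in vehicle replicates 1 to 4 and 12.17, 14.08, 6.228 and 6.176 CPM in PLX3397 replicates 1 to 4. The highest library was vehicle 1, and the remaining 7 lay between 6.176 and 14.08 CPM. The log2 fold change was −0.42 (SE 0.45), and without vehicle 1 it was 0.11. Igf2 was more scattered, 8.151, 38.01, 47.11 and 9.757 CPM with vehicle and 35.56, 36.43, 21.34 and 20.49 CPM with PLX3397, a log2 fold change of 0.14 (SE 0.56). Its vehicle libraries formed the lowest 2 and the highest 2 of the 8, with the PLX3397 libraries between them.

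Igf1r was 143.7, 164.7, 159.1 and 194.9 CPM with vehicle and 130.2, 182.3, 222.2 and 212.4 CPM with PLX3397, a log2 fold change of 0.14 (SE 0.20). Igfbp3 was 1510, 1600, 1158 and 1488 CPM with vehicle and 984.5, 1578, 1740 and 1707 CPM with PLX3397, a log2 fold change of 0.03 (SE 0.22). Each group held both high and low libraries of these genes. Igfbp4, Igfbp5 and Igfbp7 ranged over 154.3 to 245 CPM, 145.5 to 351.6 CPM and 109.5 to 166.5 CPM over the 8 tumours, with log2 fold changes of 0.05, −0.07 and 0.00 (SE 0.16, 0.24 and 0.16). Replicates 1 and 2 of each group carried the Y-linked transcript Ddx3y and replicates 3 and 4 did not. Within these pairs the log2 ratio of mean CPM, PLX3397 over vehicle, was −0.33 and −0.52 for Igf1, 0.64 and −0.44 for Igf2, 1.11 and 0.92 for Igfbp2, −0.28 and 0.38 for Igfbp3, and 0.14 and −0.19 for Igfbp5, so that Igf2, Igfbp3 and Igfbp5 had opposite signs in mice with and without Ddx3y.

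Igfbp2 varied most. It was 87.21, 98.92, 102.5 and 2.695 CPM with vehicle and 252.4, 148.6, 77.28 and 122 CPM with PLX3397. Vehicle 4 lay far below the other 7, and the log2 fold change was 1.04 (SE 0.84) with it and 0.64 without it. Igfbp2 moved with the astrocyte genes over the 8 tumours. Gfap, an astrocyte filament gene, was 508.6, 807.7, 894.6 and 16.0 CPM with vehicle and 1656.4, 868.2, 483.7 and 822.9 CPM with PLX3397, and it was the gene most like Igfbp2 (Pearson r 0.995 of log2 CPM over 8 libraries, which share the treatment groups). Without vehicle 4 and PLX3397 replicate 1, the libraries farthest from the median, r was 0.788. The summed level of 8 astrocyte markers ranged over 435.9 to 2959 CPM with vehicle and 1319 to 4080 CPM with PLX3397. Vehicle 4 was low in other brain markers too. Its oligodendrocyte markers summed to 59.31 CPM, against 348.9 to 1819 CPM in the other tumours. Its neuron markers summed to 333.8 CPM, against 1215 to 3558 CPM. The part of astrocytes or of other brain cells in the Igfbp2 values was not tested.

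RNA of myeloid genes varied among the same tumours. The summed CPM of 6 myeloid genes (Tyrobp, Fcer1g, Aif1, Laptm5, Itgam and Ptprc) was 929.5, 638.6, 765.9 and 567.5 with vehicle and 472.6, 441, 158.5 and 237.8 with PLX3397, with no overlap. Longer marker lists did overlap: the summed CPM of 8 shared macrophage markers was 1277 to 2881 with vehicle and 285.3 to 1496 with PLX3397, that of microglia markers 1935 to 2370 and 1542 to 2163, and that of monocyte-derived macrophage markers 2725 to 3438 and 2194 to 2738. Igf1 per 100 myeloid CPM was 2.6, 1.41, 1.49 and 1.12 with vehicle and 2.58, 3.19, 3.93 and 2.6 with PLX3397. Vehicle 1 reached the range of the treated tumours and the other vehicle tumours lay below it. The mean log2 difference was 0.95, with p = 0.0571 in a two-sided exact permutation test over 70 splits, where the smallest p possible is 0.0286. Without vehicle 1 the difference was 1.19. Leaving it out removes the only overlap, which fixes the outcome of the permutation test, so no p is given for that setting. With Tyrobp alone as the denominator the difference was 1.12 (p = 0.0571, exact permutation test). The sum in the denominator was lower in every treated tumour, and its part in the difference was not tested.

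**Figure D4:**
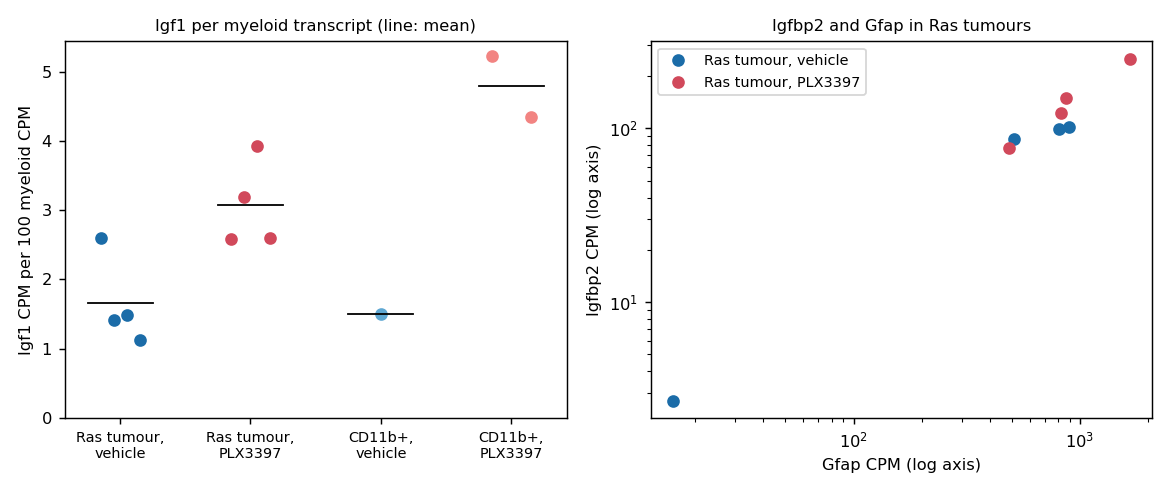
The left panel plots Igf1 per 100 CPM of 6 myeloid genes (y axis) by group (x axis), each point 1 library; the right panel plots Igfbp2 CPM against Gfap CPM in the 8 Ras tumours, both on log scales. Vehicle 1 lies at 2.6 in the left panel and the other vehicle tumours at 1.12 to 1.49; vehicle 4 lies alone at 2.695 CPM of Igfbp2 in the right panel.

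Of 22 further IGF system genes, 18 were tested in the Ras tumours and 0 were called; Insr, the insulin receptor, had a log2 fold change of 0.08 (SE 0.16), Igf2r, which takes IGF2 up for degradation, 0.14 (SE 0.18), and H19, the imprinted RNA beside Igf2, −0.87 (SE 0.47). Of 14 PI3K, AKT and mTOR genes none was called. Of 12 regulators of macrophage Igf1 (IL-4, IL-13, GM-CSF and TGF-beta genes with their receptors, STAT6 and NFAT), 10 were tested and 0 were called, with a median log2 fold change of −0.37.

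CD11b-positive cells of PDGFB tumours had more Igfbp2 and Igfbp3 RNA after PLX3397 than the vehicle library. In this comparison 956 of 15052 genes (6.35%) passed the threshold: 688 (4.57%) were higher after PLX3397 and 268 (1.78%) were lower. With 1 vehicle library and 1 residual degree of freedom, that library is assumed to vary like the PLX3397 pair. Igfbp2 was 7.611 CPM in the vehicle library and 103.6 and 81.27 CPM in the PLX3397 libraries, a log2 fold change of 3.54 (SE 0.25, adjusted p = 0.0305). Igfbp3 was 129.2 CPM against 517.3 and 684.4 CPM, a log2 fold change of 2.15 (SE 0.26, adjusted p = 0.0345).

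Igf1, the macrophage ligand, was 88.03 CPM in the vehicle library and 272.6 and 197.4 CPM in the PLX3397 libraries. Its log2 fold change of 1.35 (SE 0.26) missed the threshold (adjusted p = 0.0559); it was called by DESeq2 (adjusted p = 3.33e-05) and by edgeR without the filter on low counts (adjusted p = 0.0249). Igf1 per 100 myeloid CPM was 1.5 in the vehicle library and 5.23 and 4.35 in the PLX3397 libraries. Igfbp7 was 33.59 CPM against 95.64 and 169.8 CPM, a log2 fold change of 1.92 (SE 0.40, adjusted p = 0.062).

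Igf1r was 42.2 CPM against 75.55 and 116.5 CPM (log2 fold change 1.12, SE 0.30, adjusted p = 0.0973), and Igfbp5 28.47 CPM against 53.22 and 99.77 CPM (1.36, SE 0.41, adjusted p = 0.12). Igf2 was 2.591 CPM against 3.398 and 14.74 CPM, and Igfbp4 73.72 CPM against 75.47 and 100.2 CPM. All 8 members were higher in both PLX3397 libraries than in the vehicle library, where 46.6% of all genes were. Their median log2 fold change was 1.55, against 0.01 over all genes tested. DESeq2 called 1980 of 14371 genes (13.8%) and 6 members, with Igf1r, Igfbp5 and Igfbp7 among them beside Igf1, Igfbp2 and Igfbp3.

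Markers of cells other than macrophages moved with these values. The summed level of 8 astrocyte markers was 121.8 CPM in the vehicle library and 689.2 to 725.5 CPM in the PLX3397 libraries, with 6 of 8 called higher, among them Gfap at a log2 fold change of 2.95. Fibroblast and meningeal markers summed to 150.3 against 564.8 to 1046 CPM (1 of 10 called higher), endothelial markers to 244.1 against 357.4 to 630.2 CPM (0 of 10), and mural markers to 288.7 against 454.9 to 569.5 CPM (1 of 10). None of the astrocyte, endothelial, mural or fibroblast markers was at 0 in either group. The 8 shared macrophage markers summed to 11500 CPM against 10210 to 13690 CPM, with 0 called. Neuron markers summed to 29.77 against 136.1 to 150.3 CPM (5 of 8 called higher), oligodendrocyte precursor markers to 30.58 against 139.8 to 149 CPM (4 of 8) and oligodendrocyte markers to 203.4 against 371.4 to 507.5 CPM (3 of 8). Tumour cell markers summed to 474.2 against 754.7 to 968.8 CPM (5 of 11 called higher), and dividing-cell markers to 957.3 against 212.5 to 314.5 CPM (4 of 6 called lower). The part of these other cells in the values of the IGF genes was not tested.

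Of the 22 further IGF system genes, 19 were tested in the CD11b-positive cells, with a median log2 fold change of 1.47. The test called 5 of them, each higher after PLX3397. Igf2r was 34.46 CPM in the vehicle library and 125.7 and 135.8 CPM in the PLX3397 libraries (log2 fold change 1.86, SE 0.16). Htra1, a protease that cleaves IGF-binding proteins, rose by 2.37 (SE 0.16) on the log2 scale, the adaptors Irs1 and Gab1 by 2.59 (SE 0.37) and 1.01 (SE 0.17), and Igf2bp2, an RNA-binding protein of Igf2 transcripts, by 1.82 (SE 0.25). Insr had a log2 fold change of 0.53 (SE 0.16) and H19 of 0.04 (SE 0.38), neither called. None of the PI3K, AKT and mTOR genes was called, and of the regulators of macrophage Igf1 only Nfatc2 was, lower by −0.82 on the log2 scale.

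**Figure D5:**
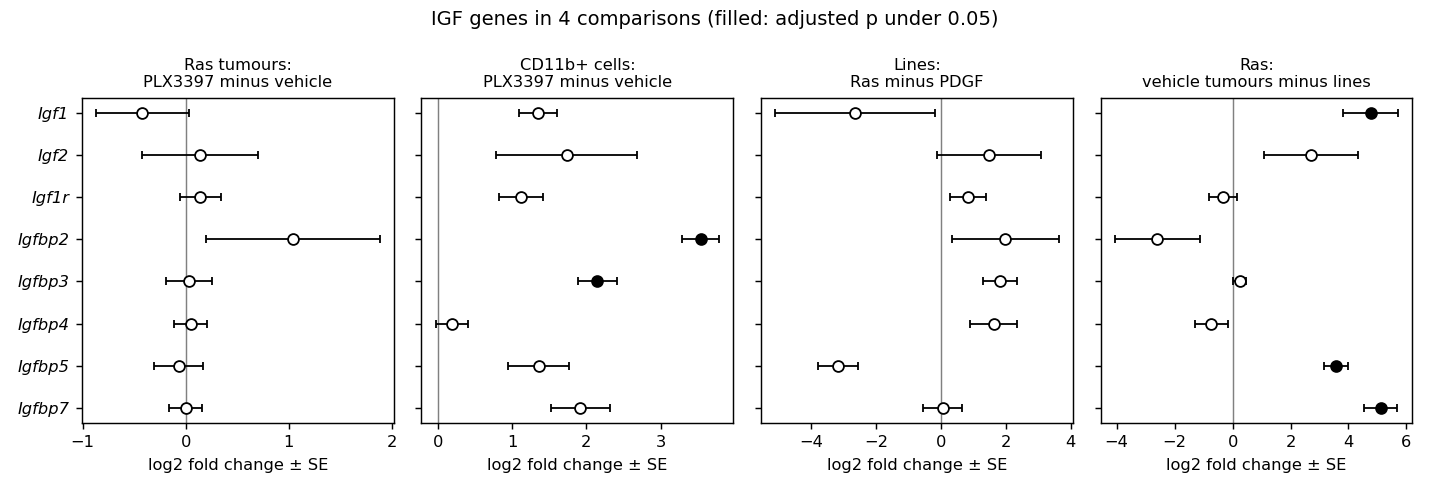
Each panel is 1 comparison, with the log2 fold change ± SE on the x axis and the 8 IGF genes on the y axis; filled points have an adjusted p under 0.05. No point is filled in the Ras tumours or between the lines, Igfbp2 and Igfbp3 are filled in the CD11b-positive cells, and Igf1, Igfbp5 and Igfbp7 are filled between tumours and lines.

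The Ras and PDGF lines were compared for IGF genes in cultured tumour cells. Their media differed with the driver, so driver and medium cannot be told apart. No member was called, and none of 17475 genes was (0%); 2842 (16.3%) had an unadjusted p under 0.05, and DESeq2 called 2035 of 19475 (10.4%). Igfbp3 was 1049 and 1345 CPM in the Ras lines and 596.9, 191 and 267.3 CPM in the PDGF lines, a log2 fold change of 1.83 (SE 0.52, adjusted p = 0.239 by edgeR and 0.0362 by DESeq2). Igfbp5 was 17.12 and 23.49 CPM in the Ras lines and 161.9, 316.5 and 95.24 CPM in the PDGF lines, −3.18 (SE 0.62, adjusted p = 0.212 by edgeR and 3.43e-05 by DESeq2). These 2 members did not overlap between the groups, as did 37.7% of all genes.

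The 2 Ras lines differed widely from each other in the other members. Igfbp2 was 23.88 CPM in Ras line 1 and 850.2 CPM in Ras line 2, a range that held all 3 PDGF lines but the one at 9.201 CPM (the others were at 132.8 and 191.3 CPM). Igf1r was 307.4 and 91.7 CPM in the Ras lines and 128.6, 124.4 and 106.6 CPM in the PDGF lines. Igfbp4 was 492.7 and 117.3 CPM in the Ras lines and 81.74, 160.4 and 76.89 CPM in the PDGF lines. Without Ras line 2, the Ras arm is 1 library assumed to vary like the PDGF lines, and there Igf1r had a log2 fold change of 1.47.

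The ligands were low in culture. Igf1 was 0.1676 and 0.7527 CPM in the Ras lines (6 and 24 counts) and 0.3516, 0 and 8.534 CPM in the PDGF lines, of which replicate 3 alone exceeded 1 CPM. Igf2 was 0.08379 and 7.746 CPM in the Ras lines and 0.4688, 1.284 and 2.438 CPM in the PDGF lines. Igfbp7 was low in all 5 lines, 1.816 and 6.147 CPM against 3.984, 3.454 and 4.328 CPM. Of the further IGF system genes 17 were tested and 0 were called; Igf2r had a log2 fold change of 2.46 (SE 0.85), Insr of −0.87 (SE 0.32) and H19 of 0.87 (SE 1.74).

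Set against the Ras lines, the vehicle Ras tumours had more Igf1, Igfbp5 and Igfbp7 RNA. The tumour and line libraries come from separate tables, so tissue, culture and any difference in library preparation cannot be told apart. Here 1584 of 19141 genes (8.28%) were called, 1078 (5.63%) higher and 506 (2.64%) lower in tumours. Igfbp7 was 156.3, 119, 137.1 and 136.4 CPM in tumours and 1.816 and 6.147 CPM in lines, a log2 fold change of 5.11 (SE 0.56, adjusted p = 0.00791). Igfbp5 was 145.5, 265.6, 351.6 and 225.4 CPM against 17.12 and 23.49 CPM, a log2 fold change of 3.57 (SE 0.41, adjusted p = 0.00884).

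Igf1 had a log2 fold change of 4.77 (SE 0.95, adjusted p = 0.0374), and every tumour lay above both lines, as did 23.5% of all genes. That call was lost without vehicle 1, 2 or 3 (adjusted p = 0.0917, 0.0769 and 0.103), while the log2 fold change with 1 library left out ranged from 4.09 to 6.1. With the replicate number as a block, the adjusted p was 0.173 for Igf1, 0.0726 for Igfbp5 and 0.0846 for Igfbp7, and 0 genes were called. Igf1 and Igfbp7 moved with markers of the cells that held them in the 10x tumour, while Igfbp5 could not be placed there. All 8 shared macrophage markers and 9 of 10 endothelial markers were called higher in tumours. The endothelial markers summed to 257.1 to 413.3 CPM in the vehicle tumours and 8.467 to 53.63 CPM in the Ras lines. Fibroblast and meningeal markers were called higher in 5 of 9 tested. Of 10 mural markers 5 were called higher and 1 lower. The part of cell content in the IGF values was not tested. Of the defining markers, Ccr2, Ms4a7, Fcrls and Cldn5 were among those at 0 in both Ras lines.

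The other members did not pass the test between tumours and lines. Igf2 was higher in every tumour than in either line, with a log2 fold change of 2.71 (SE 1.63, adjusted p = 0.318). Igfbp3 was as high in the lines as in the tumours, with a log2 fold change of 0.24 (SE 0.23), and Igf1r (−0.33, SE 0.49), Igfbp2 (−2.60, SE 1.47) and Igfbp4 (−0.73, SE 0.56) overlapped. Without Ras line 2, which leaves 1 line assumed to vary like the tumours, the log2 fold change of Igfbp4 was −1.45. Over all libraries left out in turn it ranged from −1.45 to 0.75. Of the further IGF system genes 19 were tested, with Grb10, an adaptor that restrains IGF1R and insulin receptor signalling, higher by 4.32, and Stc1, a stanniocalcin that inhibits PAPP-A, and Gab1 lower by −1.81 and −2.05 on the log2 scale. Igf2r (−1.39, SE 0.71), Insr (−0.12, SE 0.18) and H19 (0.65, SE 1.17) were not called.

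Among the regulators of macrophage Igf1, 5 of 10 tested were called higher in the tumours. Il4ra (log2 fold change 4.07) and Il13ra1 (3.92) are receptor chains for IL-4 and IL-13, Nfatc2 (3.63) is a transcription factor of immune cells, and Csf2ra (2.10) is a GM-CSF receptor chain. Csf2rb, the shared chain of that receptor, had 0 counts in both lines and 56.29 to 74.8 CPM in the tumours.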

How the data were processed

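Bulk RNA was measured in 16 libraries and single cells in 2. The authors deposited raw counts per gene symbol for the bulk libraries and counts of UMIs per barcode for the single cells, per the file headers. The submitters' processing notes name STAR 2.6.1e and featureCounts 1.6.2, then FastQC 0.11.7, cutadapt 1.9.1 and Trim Galore 0.4.2, with Cell Ranger and the builds GRCm38 and mm10 as well, without their roles. Members and lists were chosen with earlier results of these data known. The 8 members are named throughout; other genes of the IGF, PI3K and regulator lists are named where called, at most 6 per list with the smallest adjusted p, with Insr, Igf2r and H19 always, and the 5 genes most like Igf1, Igf2 and Igfbp2, of which 1 is not reported here.

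Rows named as dates (27 in each of the tumour and line tables, at most 0.281% and 0.36% of a library) and 1 blank row of the CD11b table (0.00011%) were left out, as were 5 columns of the line table that match no sample. Of counts from 1 to 10, 66.8% were even in the tumour table and 65.8% in the line table, against 40.8% in the CD11b table; the cause was not tested. Each comparison was fitted with the quasi-likelihood test of edgeR 4.0.16 (R 4.3.3; TMM, default low-count filter, robust), with DESeq2 1.42.0 as an alternative. CPM are counts per 1e6 counts of kept rows. Titles number the tumour and CD11b libraries and the lines, read here as 1 animal or line per library.

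A 10x cell needed 500 UMIs and 300 genes, a Drop-seq cell 300 UMIs and 200 genes, and either could have up to 20% mitochondrial UMIs. Kept cells were clustered with scanpy 1.11.5 (2000 variable genes without the members, 30 components, 15 neighbours, Leiden resolution 0.5); in 10x, 1054 barcodes exceeded the mitochondrial limit. A class was named from at least 3 markers at a fold of at least 2 over the other cells. At least 1 of them had to be among the 10 leading genes, with no other class having more there. The bulk test was tested on simulated data: genes changed 4-fold were found in 38 of 67 cases in the Ras tumours, 52 of 67 in the CD11b-positive cells, 6 of 67 between lines and 1 of 67 between tumours and lines, with 18033, 14791, 16972 and 18606 genes tested.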

Additional observations from a re-analysis of the deposited data

Results flagged for a closer look

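In the vehicle Ras tumours, Igfbp2 was 2.695 CPM in replicate 4, far below the other 3 libraries at 87.21 to 102.5 CPM. The gap to the nearest library was 0.956 of the range of the group on the log2 scale, above the critical value of 0.829 for 4 libraries. Of 16 sets of 1 gene in 1 group of 4 that were looked at, this was the 1 so marked, and chance marks about 5% of them. The same library had the lowest Gfap (16.0 CPM) and Aqp4 (3.4 CPM) of the 8 tumours. Its summed oligodendrocyte markers (59.31 CPM) and neuron markers (333.8 CPM) were the lowest as well. Whether less RNA of astrocytes or of other brain cells set its Igfbp2 was not tested.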

How the results depend on the processing

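Over all alternatives, 116 recomputed values of the comparisons and cell clusters stayed near the main value. For counts of called genes the limit was a set fold of the main count, and for single-cell values it was the main interval. Of the single-gene values, 239 kept their direction and side of the threshold. The call was lost by 6, all between tumours and lines, and gained by 9, 5 of them in the CD11b-positive cells. A further 31 values of the comparisons and clusters moved past these limits, 1 passed its threshold and 26 single-gene values changed sign. DESeq2 called 178 genes in the Ras tumours, 1980 genes and 6 members in the CD11b-positive cells, 2035 genes and 2 members between the lines and 4550 genes between tumours and lines. Without the filter on low counts, edgeR called 1 gene in the Ras tumours, 1907 in the CD11b-positive cells and 1 between the lines. With 1 library left out, the lines gave 0 to 2111 called genes and 0 to 1 members, and tumours against lines gave 302 to 3614 genes and 2 to 4 members. With the replicate number as a block, tumours against lines gave 0 called genes and 0 members. Same-numbered libraries did not deviate together (r −0.003, 0.14, −0.446 and 0.547 in the Ras tumours, −0.163 and −0.123 between the lines, 0.086 and 0.228 between tumours and lines), so the numbers are only shared. The block changed the sign of Igfbp7 in the Ras tumours (−0.01) and between the lines (−0.09), and of Igf1 between the lines (1.88). No paired analysis was possible because the CD11b groups share only 1 replicate number, and leaving out a library there leaves no residual degree of freedom.

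With 1 library left out, log2 fold changes that changed sign ranged in the Ras tumours over −0.65 to 0.11 (Igf1), −0.14 to 0.57 (Igf2), −0.09 to 0.19 (Igfbp3), −0.03 to 0.17 (Igfbp4), −0.22 to 0.12 (Igfbp5) and −0.08 to 0.11 (Igfbp7). Between the lines they ranged over −3.99 to 1.38 (Igf1), −0.39 to 1.47 (Igf1r), −3.88 to 2.47 (Igf2), −2.1 to 2.94 (Igfbp2) and −1.0 to 0.65 (Igfbp7), and between tumours and lines over −0.99 to 0.88 (Igf1r), −3.56 to 1.47 (Igfbp2) and −1.45 to 0.75 (Igfbp4). The difference in Igf1 per myeloid transcript ranged over 0.78 to 1.19.

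In the 10x library, the share of Igfbp2 in the cluster with the highest Lcn2 was 50.34% with at least 1000 UMIs a cell, 43.14% at resolution 1.0, 48.52% without the cells of the highest doublet scores and 49.2% with the members kept in the clustering. At resolution 1.0 the macrophage-like class held 9.784% of Igf1 at 43.18 CPM, because a cluster of 246 cells with 449 Igf1 UMIs was left unnamed by the naming rule. Without the cells of the highest doublet scores, Igfbp7 in vascular cells had a share of 90.19% and 7285 CPM, Igfbp5 396 CPM and Igfbp2 in the cluster with the highest Lcn2 6256 CPM. In Drop-seq Igfbp7 then had 4858 CPM in vascular cells, and the cluster with the highest Lcn2, which is not that with the highest Igfbp2, held 0.9158% of Igfbp2 at 368.7 CPM, against 0.2169% at 68.1 CPM with all cells. The highest macrophage sub-cluster had 167 CPM of Igf1 at resolution 0.8, an alternative added after seeing the data. Depth limits Igf2 in the 10x cells, Igfbp5 in Drop-seq and Igf1 in the lines, and the CD11b comparison is limited by its 1 vehicle library.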

Other observations

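Of the 22 further IGF system genes, 16 had at least 100 UMIs in the 10x Ras tumour, and 1 of them, Grb10, had over 50% of its UMIs in 1 cluster. The cluster led by Clca3a1 and Matn4, with 26.8% of all UMIs, held the largest share of 8 of the 16, at 28.9% to 42.8%. Htra1, the protease of binding proteins, had 10351 UMIs, 47.0% of them in the Lcn2 cluster where Igfbp2 was highest, at 792.6 CPM. Grb10, which was higher in tumours than in lines, had 166 UMIs, 77.7% of them in the vascular cluster at 78.18 CPM. Stc1 was at 115.1 CPM in vascular cells of the 10x tumour and 105.2 CPM in those of the Drop-seq tumour. H19 had its largest share, 45.2% of UMIs, in the cluster led by Rorb and Ntng1, at 31.81 CPM.

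Of the 12 genes listed as regulators of macrophage Igf1, 9 had at least 100 UMIs, and 8 of these had their largest share, 38.3% to 80.7%, in the macrophage cluster led by Rgs1 and Arg1. It held 80.7% of the UMIs of Csf2rb (214.1 CPM), 60.8% of those of Il4ra (180.6 CPM) and 54.4% of those of Tgfb1 (389.6 CPM), against 74.5% of those of Igf1 and 9.77% of all UMIs. Neutrophil-like cells, with no Igf1 UMI, had more Csf2rb, 505.5 CPM. The cytokines Il4 and Il13 had 1 UMI each, in the neutrophil-like cluster, and Csf2 had 4, in the cluster led by Crabp2.

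The genes most like Igf1 over the 8 Ras tumours were Nod1 (Pearson r 0.966), Gsdmd (0.959), Renbp (0.957), Dpp7 (0.952) and Snx17 (0.95). For Igf2 they were Gpatch8 and Slc35b4 (0.973 each), Cpeb4 (0.969), Mrs2 (0.961) and Pcmtd1 (0.958), and for Igfbp2, after Gfap, Aqp4 (0.991), Cybrd1 (0.989), Mlc1 and Ackr1 (0.988 each). Without the 2 tumours farthest from the median of each member, Nod1 had r 0.985, Gpatch8 0.851, Aqp4 0.686 and Ackr1 0.592. Over the 16 clusters of the 10x tumour, the genes most like Igf1 were Spint1 (0.949), Apoc1 (0.887), Timp2 (0.878), Eepd1 (0.86) and Apoe (0.853), and among those most like Igfbp2 were Pdlim4 (0.911), Csdc2 (0.907), Cdkn2a (0.904) and Tmem179 (0.9). For Igf2, with 19 UMIs, they were Gm26772 (0.856), Crabp2 (0.733), Nefl (0.701), Klk7 (0.696) and Stmn2 (0.661). These are the highest of many genes over few libraries or clusters, which share depth and cell content.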
